A study of Mus musculus with 12 samples.

Results

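The 10 genes described here, Tbx21, Ifng, Il2rb, Klrd1, Klrb1c, Nkg7, Xcl1, Ccl5, Gzma and Gzmb, are effector genes of NKT1 cells, the interferon gamma-producing subset of invariant natural killer T (iNKT) cells. They were found by symbol among the 48672 gene IDs of the count files, and each matched 1 ID. RNA had been sequenced from thymic iNKT cells of C57Bl/6J mice 4 to 5 weeks old, in a series about the transcription factor BCL6 in the early development of innate-like T cells. The mice were wild type (WT) or CDCre;Bcl6F/F (Bcl6KO), in which a Cre transgene acts on floxed Bcl6 alleles; neither the promoter of this Cre nor any allele carried by the WT mice is spelled out in the labels. Tetramer-binding, T cell receptor beta-positive cells were sorted as stage 0 (ST0, CD24+ CD44-) or stage 1 (ST1, CD24- CD44-) from the pooled thymi of 4 to 7 mice. The 12 libraries form 4 groups of 3, named WT ST0, WT ST1, Bcl6KO ST0 and Bcl6KO ST1.

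In NKT1 cells the T-box factor T-bet, encoded by Tbx21, drives genes that natural killer (NK) cells also use. These include the interleukin-2 and interleukin-15 receptor beta chain, lectin-like NK receptors, granule proteins, chemokines and interferon gamma. iNKT cells take on this program late in the thymus, as CD44-positive cells, and the gates sampled here come before that step. BCL6 is a transcriptional repressor that thymocytes express at the double-positive stage, where iNKT cells arise.

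Library totals ran from 4129919 to 8038717 counts, and levels below are counts per 1000000 (CPM) of a library size corrected for composition by TMM, the trimmed mean of log ratios. Where a gene has no count, up to 3 counts remain possible; this limit, called the floor here, equals 0.569 to 0.615 CPM. The Bcl6KO ST0 libraries had the fewest genes detected (14860 to 17734, against 18417 to 22028 in the other groups), and Sp100 alone took 17.5 ± 6.57% of their counts (SD, n = 3), against 3.32 ± 2.86% in WT ST0. Markers of the sorted cells were present: the iNKT alpha chain segment Trav11 was counted at 206 to 399 CPM in the 12 libraries. Cd24a stood at 149 to 313 CPM in the stage 0 libraries and 0.790 to 13.7 CPM in the stage 1 libraries, and Cd44 at 0.199 to 26.9 CPM throughout. Bcl6 was counted at 288 ± 78.9 CPM in WT ST0 and 607 ± 83.0 CPM in Bcl6KO ST0, and at 7.18 ± 2.63 CPM in WT ST1 and 32.0 ± 21.5 CPM in Bcl6KO ST1; these counts cover the whole gene and so check neither the deletion nor the labels.

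Of the 10 genes, only Il2rb was above the floor in all 12 libraries. Over all libraries its mean level per kilobase of exon was 58.9 CPM, followed by Nkg7 at 10.01, Klrd1 at 4.38, Gzma at 3.41, Tbx21 at 2.27, Klrb1c at 2.20, Gzmb at 2.10, Ifng at 0.898, Ccl5 at 0.889 and Xcl1 at 0.818 CPM per kilobase. The other 9 genes were thus low in these cells, and each was at or below the floor in at least 4 libraries. Nkg7 was above the floor in 8 libraries, Tbx21 and Klrb1c in 7, Klrd1, Gzma and Gzmb in 5, and Ifng, Xcl1 and Ccl5 in 3. A single library often carried a gene: 80% of all Ifng counts came from Bcl6KO ST1 replicate 3, and 67.3% of all Klrd1 counts from WT ST1 replicate 2. In bulk libraries, fewer cells of a type and less RNA per cell cannot be told apart.

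**Figure D1:**
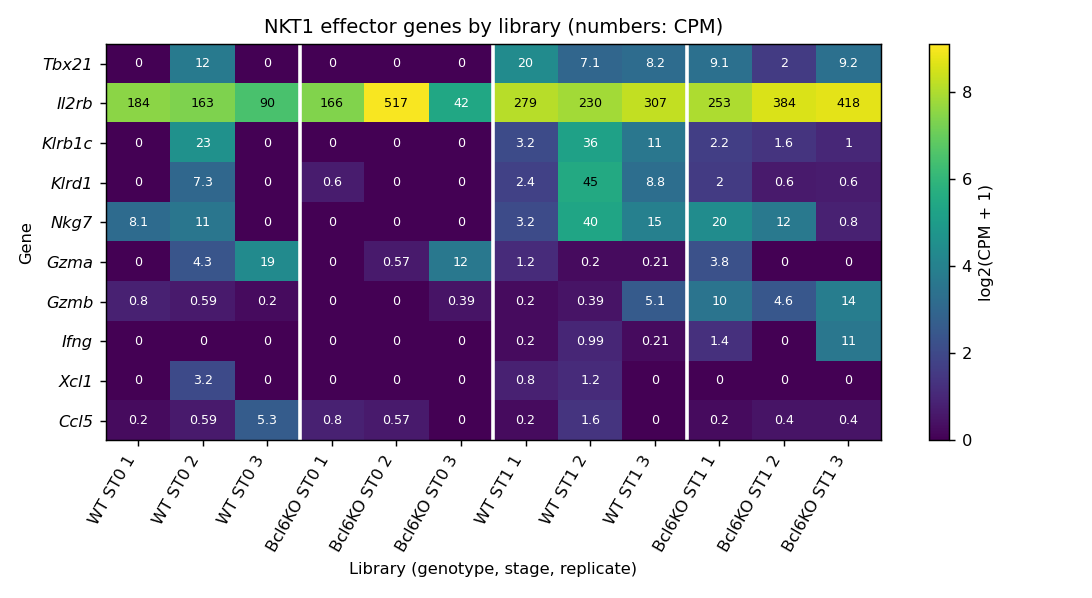
Level of each of the 10 genes in each of the 12 libraries, in CPM, with colour on a log2(CPM + 1) scale and white lines between the 4 groups. Il2rb is high in every library, and the Bcl6KO ST0 columns are near 0 for most of the other genes.

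Tbx21 (ENSMUSG00000001444; chromosome 11, 97098071 to 97115331, minus strand, build mm10 as are all coordinates here) encodes T-bet, the lineage factor of NKT1 cells. In replicates 1, 2 and 3 it was counted at 0, 12.4 and 0 CPM in WT ST0 (4.13 ± 7.16, SD, n = 3), at 19.7, 7.11 and 8.20 CPM in WT ST1 (11.7 ± 6.99), at 0 CPM in all Bcl6KO ST0 libraries, and at 9.14, 1.99 and 9.18 CPM in Bcl6KO ST1 (6.77 ± 4.14). Both stage 1 groups thus held Tbx21 in every library and overlapped each other, whereas at stage 0 only WT replicate 2 held it. The order of the group means was WT ST1, Bcl6KO ST1, WT ST0 and Bcl6KO ST0, and each of these overlapped the next in its libraries.

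Il2rb (ENSMUSG00000068227; chromosome 15, 78479256 to 78495271, minus strand) encodes CD122, the beta chain through which these cells receive interleukin-15. Its levels were 184, 163 and 89.8 CPM in WT ST0 (145 ± 49.4) and 279, 230 and 307 CPM in WT ST1 (272 ± 39.2). In the Bcl6KO they were 166, 517 and 41.5 CPM at ST0 (241 ± 247) and 253, 384 and 418 CPM at ST1 (352 ± 87.1). The 3 WT ST1 libraries were all above the 3 WT ST0 libraries. Bcl6KO ST0 held both the lowest and the highest Il2rb value of the series and overlapped the other 3 groups.

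Among the NK receptor genes, Klrb1c (ENSMUSG00000030325; chromosome 6, 128778485 to 128789215, minus strand) encodes the receptor by which mature NKT1 and NK cells of this strain are commonly stained. It belongs to a family of similar neighbouring genes, so its counts are uncertain where reads could be assigned to more than 1 of them. Klrb1c was counted at 0, 23.4 and 0 CPM in WT ST0 (7.81 ± 13.5) and 3.19, 35.5 and 11.3 CPM in WT ST1 (16.7 ± 16.8). It was at 0 CPM in all Bcl6KO ST0 libraries and at 2.18, 1.59 and 0.998 CPM in Bcl6KO ST1 (1.59 ± 0.593). Every Bcl6KO ST1 library therefore held Klrb1c above the floor, yet below every WT ST1 library.

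Klrd1 (ENSMUSG00000030165; chromosome 6, 129591782 to 129598775, plus strand) encodes CD94, the shared partner chain of the NKG2 receptors. It was counted at 0, 7.28 and 0 CPM in WT ST0 (2.43 ± 4.21) and 2.39, 45.0 and 8.82 CPM in WT ST1 (18.7 ± 23.0). In the Bcl6KO it was counted at 0.599, 0 and 0 CPM at ST0 (0.200 ± 0.346) and 1.99, 0.596 and 0.599 CPM at ST1 (1.06 ± 0.802). As for Klrb1c, all 3 Bcl6KO ST1 libraries were below all 3 WT ST1 libraries, and the highest value of each WT group was in replicate 2. Only replicate 1 of Bcl6KO ST1 was above the floor for Klrd1.

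**Figure D2:**
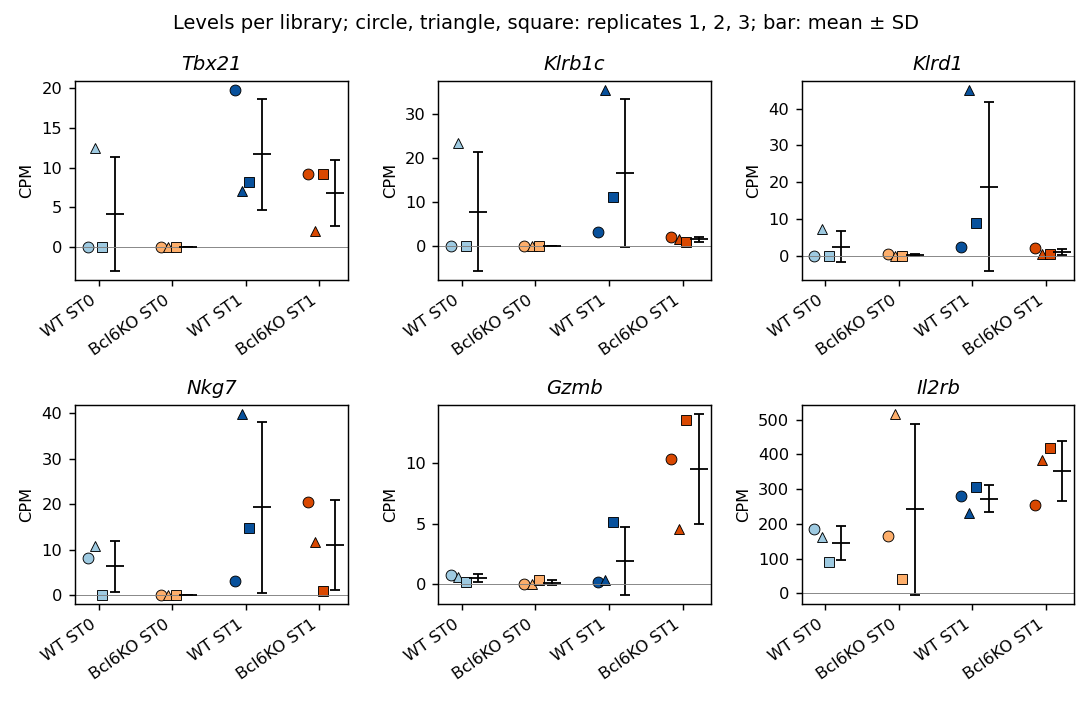
Levels in CPM of Tbx21, Klrb1c, Klrd1, Nkg7, Gzmb and Il2rb in the 4 groups, with 1 symbol per library and the mean ± SD of 3 libraries beside it. Tbx21, Klrb1c and Nkg7 are at 0 CPM in all Bcl6KO ST0 libraries, and Gzmb is highest in Bcl6KO ST1.

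Nkg7 (ENSMUSG00000004612; chromosome 7, 43437073 to 43438249, plus strand) encodes a membrane protein of cytotoxic granules. It was counted at 8.15, 10.8 and 0 CPM in WT ST0 (6.33 ± 5.64), at 3.19, 39.9 and 14.8 CPM in WT ST1 (19.3 ± 18.8), at 0 CPM in all Bcl6KO ST0 libraries and at 20.5, 11.7 and 0.799 CPM in Bcl6KO ST1 (11.0 ± 9.85). After Il2rb it was the member above the floor in the most libraries, and WT ST0, WT ST1 and Bcl6KO ST1 overlapped. The 3 Bcl6KO ST0 libraries and WT ST0 replicate 3 had no count.

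The granzymes are serine proteases released into target cells, and the pair measured here followed unlike patterns. Gzma (ENSMUSG00000023132; chromosome 13, 113093825 to 113100981, minus strand) was counted at 0, 4.33 and 19.3 CPM in WT ST0 (7.87 ± 10.1), at 1.20, 0.197 and 0.205 CPM in WT ST1 (0.533 ± 0.574), at 0, 0.569 and 11.6 CPM in Bcl6KO ST0 (4.06 ± 6.55) and at 3.77, 0 and 0 CPM in Bcl6KO ST1 (1.26 ± 2.18). Its highest values lay at stage 0, in replicate 3 of either genotype, and all groups overlapped. Gzmb (ENSMUSG00000015437; chromosome 14, 56258838 to 56262260, minus strand) was counted at 0.795, 0.591 and 0.197 CPM in WT ST0 (0.528 ± 0.304), at 0.199, 0.395 and 5.13 CPM in WT ST1 (1.91 ± 2.79), at 0, 0 and 0.394 CPM in Bcl6KO ST0 (0.131 ± 0.227) and at 10.3, 4.57 and 13.6 CPM in Bcl6KO ST1 (9.49 ± 4.56). Gzmb was thus above the floor in every Bcl6KO ST1 library, in 1 WT ST1 library, in 1 WT ST0 library and in no Bcl6KO ST0 library, and Bcl6KO ST1 overlapped WT ST1 through WT replicate 3.

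The cytokine and chemokine genes Ifng, Xcl1 and Ccl5 were each at or below the floor in 9 of the 12 libraries. Ifng (ENSMUSG00000055170; chromosome 10, 118441046 to 118445892, plus strand), the signature cytokine of NKT1 cells, had no count in any stage 0 library, 0.199, 0.987 and 0.205 CPM in WT ST1 (0.464 ± 0.453) and 1.39, 0 and 11.2 CPM in Bcl6KO ST1 (4.19 ± 6.09). Its level in Bcl6KO ST1 rested on replicate 3, and the mean in WT ST1 was under the floor. Of its exonic bases, 25.95% overlap another annotated gene on the same strand, which is not among the IDs of the count files.

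Xcl1 (ENSMUSG00000026573; chromosome 1, 164931644 to 164935527, minus strand), a chemokine that attracts dendritic cells, was counted at 0, 3.15 and 0 CPM in WT ST0 (1.05 ± 1.82), at 0.797, 1.18 and 0 CPM in WT ST1 (0.661 ± 0.604) and at 0 CPM in all 6 Bcl6KO libraries. Both WT groups also held a library at 0, so they overlapped the Bcl6KO groups. Ccl5 (ENSMUSG00000035042; chromosome 11, 83525778 to 83530518, minus strand), a chemokine of memory and cytotoxic T cells, was counted at 0.199, 0.591 and 5.31 CPM in WT ST0 (2.03 ± 2.85), at 0.199, 1.58 and 0 CPM in WT ST1 (0.593 ± 0.860), at 0.799, 0.569 and 0 CPM in Bcl6KO ST0 (0.456 ± 0.411) and at 0.199, 0.398 and 0.399 CPM in Bcl6KO ST1 (0.332 ± 0.115). Only 3 libraries held Ccl5 above the floor, and the means of WT ST1 and of both Bcl6KO groups were under it.

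Differences between groups were tested on the counts with edgeR's quasi-likelihood F-test over all 12 libraries, two-sided, with Benjamini-Hochberg adjustment over the 15704 genes that passed the filter on low counts. A gene passed the threshold at an adjusted p under 0.05. Of the 10 genes, 7 were tested, and Ifng, Xcl1 and Ccl5 did not pass the filter. A gene near 0 in some groups passed the filter through the groups where it was higher. Counts of members without overlap or with a low unadjusted p are therefore partly built in. The shares of all tested genes given beside them do not correct for this. Fold changes are on the log2 scale with their standard error (SE). A fitted fold against a group at 0 depends on the prior count that the fit adds. For members compared between pairs of groups, a lower bound against the floor of the group at 0 is given beside it. No member passed the threshold in any of the 7 comparisons computed, which were the 4 between pairs of groups, the interaction of genotype and stage, and the average effects of genotype and of stage.

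The first comparison set the Bcl6KO ST0 libraries against the WT ST0 libraries. None of the 7 tested members passed the threshold, against 0.0191% of all tested genes, and 3 members (Tbx21, Klrb1c and Nkg7) had an unadjusted p under 0.05, against 14.7% of all tested genes. DESeq2, run as an alternative, passed 2 members (Klrb1c and Nkg7); it gave no p for Tbx21 in any comparison. Nkg7 had a log2 fold change of -8.00 (SE 2.37, edgeR with Benjamini-Hochberg adjustment, adjusted p = 0.191), and its mean was at least 10.8-fold lower in Bcl6KO ST0. Klrb1c had a fitted value of -8.31 (SE 2.75, adjusted p = 0.223, at least 13.3-fold lower) and Tbx21 one of -7.39 (SE 2.52, adjusted p = 0.228, at least 7.05-fold lower). For Klrb1c and Tbx21 these sizes came from WT ST0 replicate 2 alone, since without it both genes were at 0 in all remaining stage 0 libraries. No member was without overlap between these groups, where 7.95% of all tested genes were lower and 4.67% higher without overlap.

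The other tested members differed less at stage 0. Klrd1 had a log2 fold change of -3.46 (SE 2.03, edgeR adjusted p = 0.454), Gzmb of -1.83 (SE 1.56, adjusted p = 0.636), Gzma of -0.95 (SE 2.06, adjusted p = 0.883) and Il2rb of 0.73 (SE 0.62, adjusted p = 0.63). Xcl1, not tested, was at least 1.79-fold lower in Bcl6KO ST0 by its mean, again through WT replicate 2. The median log2 fold change of the 7 tested members was -3.46, or -2.82 with the genes at 0 placed at their bound, beside -0.01 over all tested genes. A fit of only the stage 0 groups tested 2 members, so the others entered this median through counts in stage 1 libraries. The median is therefore no measure of a shift of the whole list. Without WT ST0 replicate 2, Klrd1 was at or under the floor in all remaining stage 0 libraries, and Il2rb turned to -0.50 without Bcl6KO ST0 replicate 2, the library with the highest Il2rb level.

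The libraries behind this comparison also differed in other measures. WT ST0 replicate 2, with 21607 genes detected and an Sp100 share of 0.0289%, held 7 members above the floor, whereas WT ST0 replicates 1 and 3 held 3 each at Sp100 shares of 5.03% and 4.91%. The Bcl6KO ST0 libraries held 2, 1 and 2 members above the floor at Sp100 shares of 10.8%, 23.9% and 17.9%. The summed level of the 9 genes other than Il2rb was 9.14, 62.6 and 24.8 CPM in WT ST0 and 1.40, 1.14 and 12.01 CPM in Bcl6KO ST0. With the log2 Sp100 share as a covariate the value for Tbx21 was -3.19, for Klrb1c -3.31 and for Nkg7 -6.97, and that for Klrd1 turned to 1.02. The share was higher in every Bcl6KO ST0 library than in any other library, so this fit cannot fully separate it from that group. The part of detection and of the Sp100 share in the levels was not tested beyond this.

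**Figure D3:**
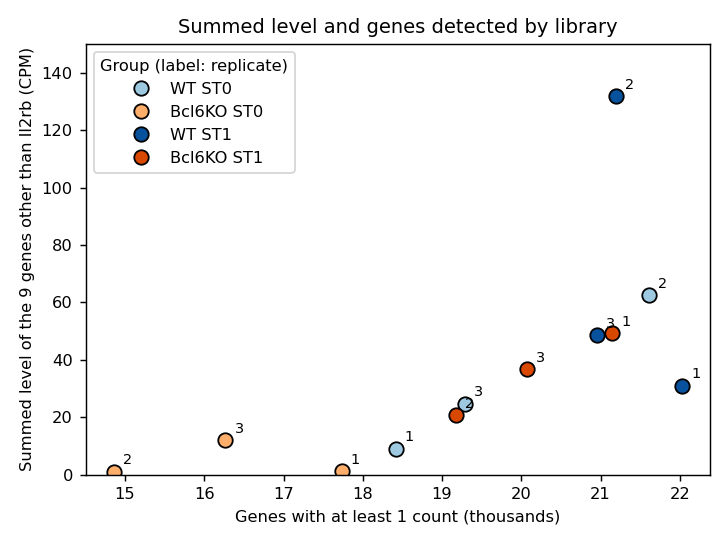
Summed level of the 9 genes other than Il2rb, in CPM, against the number of genes with at least 1 count, with 1 point per library labelled by its replicate number. The 3 Bcl6KO ST0 libraries lie at the lower left with at most 12.01 CPM, and WT ST1 replicate 2 is the highest at 132 CPM.

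The same comparison at stage 1 concerned libraries in which 6 to 8 members (WT) and 5 to 8 members (Bcl6KO) were above the floor. No member passed the threshold, as was true of all tested genes (0%), and none had an unadjusted p under 0.05, which 2.57% of all tested genes had. With DESeq2, no member that got a p passed. Klrd1 and Klrb1c were the 2 members whose Bcl6KO libraries were all below the WT libraries, while 7.44% of all tested genes were lower without overlap and 5.87% higher. Klrd1 had a log2 fold change of -4.11 (SE 1.98) and Klrb1c of -3.37 (SE 1.99), with edgeR adjusted p = 1 for both. These sizes leaned on WT ST1 replicate 2: without it, the value for Klrd1 was -2.38.

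Gzmb pointed the other way at stage 1, with a log2 fold change of 2.30 (SE 1.42, edgeR adjusted p = 1), and without WT ST1 replicate 3 this was 4.88. Tbx21 (-0.78, SE 1.71), Nkg7 (-0.81, SE 1.54), Il2rb (0.37, SE 0.61) and Gzma (1.20, SE 2.17) were within 1 SE of 0, also at an adjusted p of 1. By their means the NK receptor genes were thus lower and Gzmb higher in Bcl6KO ST1, while Tbx21 overlapped between the genotypes. The median over the 7 tested members was -0.78, beside 0.02 over all tested genes.

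In WT cells the step from stage 0 to stage 1 was accompanied by no member past the threshold, against 0.433% of all tested genes (0.07% higher and 0.363% lower). No member to which DESeq2 gave a p passed with it, and none had an unadjusted p under 0.05 in edgeR, against 8.4% of all tested genes. Il2rb had a log2 fold change of 0.90 (SE 0.62, edgeR adjusted p = 0.788), with no overlap between its libraries. Ifng was also without overlap, but with its WT ST1 mean under the floor, and 12.5% of all tested genes were higher and 9.06% lower without overlap. Klrd1 (2.94, SE 1.87, adjusted p = 0.756), Gzmb (1.81, SE 1.44, adjusted p = 0.845), Nkg7 (1.60, SE 1.57, adjusted p = 0.899), Tbx21 (1.49, SE 1.74, adjusted p = 0.92) and Klrb1c (1.09, SE 1.82, adjusted p = 0.95) had positive values.

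Gzma was the member with a negative value in this step, -3.82 (SE 2.32, edgeR adjusted p = 0.741). The sizes for Tbx21, Klrd1 and Klrb1c rested on WT ST0 replicate 2, since without it all 3 genes were at 0 in the remaining WT ST0 libraries. The value for Klrb1c turned to -0.10 without WT ST1 replicate 2, and that for Gzmb to -0.77 without WT ST1 replicate 3. That WT ST0 library also held other genes that were high at stage 1, such as the interleukin-18 receptor gene Il18r1 at 219 CPM, against 14.3 and 1.97 CPM in the other WT ST0 libraries and 464 to 823 CPM in WT ST1. Its double-positive thymocyte markers, 8 genes with a summed level of 1479 CPM, were the highest of the series.

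In the Bcl6KO the same step separated 4 members. Tbx21, Klrb1c, Nkg7 and Gzmb were higher in every Bcl6KO ST1 library than in every Bcl6KO ST0 library, where 11.8% of all tested genes were higher without overlap and 5.76% lower. The same 4 had an unadjusted p under 0.05, against 16.4% of all tested genes, and none passed the threshold after adjustment, against 0.675% of all tested genes (0.42% higher and 0.255% lower). A fit of only the Bcl6KO groups tested 3 members, so the others entered through counts in WT libraries. The 4 genes were at or near 0 in Bcl6KO ST0 and passed the filter through groups where they were higher. Their number is therefore no measure of a shift of the whole list. Nkg7 had a log2 fold change of 8.80 (SE 2.41, edgeR adjusted p = 0.112) and was at least 18.8-fold higher by its mean. Gzmb, with a few counts at stage 0, had one of 5.94 (SE 1.73, adjusted p = 0.12).

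Tbx21 had a fitted value of 8.10 (SE 2.56, edgeR adjusted p = 0.154) and was at least 11.5-fold higher in Bcl6KO ST1, and Klrb1c one of 6.03 (SE 2.63, adjusted p = 0.281, at least 2.71-fold higher). Klrd1 (2.29, SE 1.98, adjusted p = 0.617), Il2rb (0.54, SE 0.61, adjusted p = 0.717) and Gzma (-1.67, SE 2.12, adjusted p = 0.753) overlapped between the stages. Ifng, not tested, was at least 7.15-fold higher by its mean, which rested on replicate 3. DESeq2 passed Klrb1c, Nkg7 and Gzmb in this comparison, where it passed 1309 genes in all against edgeR's 106. The low levels in the Bcl6KO ST0 libraries came with the detection and Sp100 values given above.

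**Figure D4:**
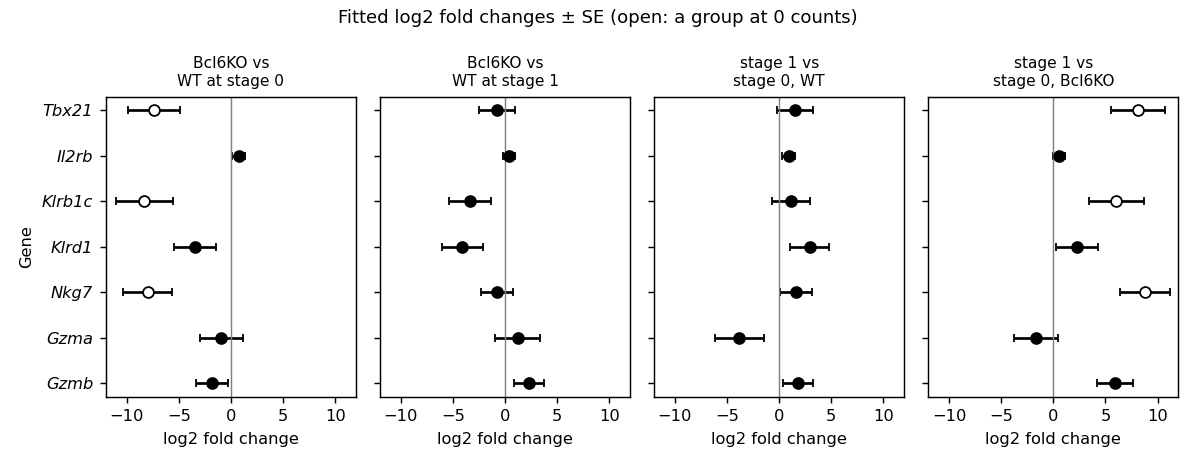
Fitted log2 fold changes with their SE for the 7 tested genes in the 4 comparisons, with open circles where 1 of the groups is at 0 counts. The values farthest from 0 are the open circles of Tbx21, Klrb1c and Nkg7 that involve Bcl6KO ST0, and Il2rb runs from 0.37 to 0.90.

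The promoters of these 4 genes are printed because their levels separated the stages in the Bcl6KO, and because Tbx21 itself encodes a DNA-binding factor. RefSeq's table for GRCm38.p6 held 7 of the 10 members, with 250 bases before and 50 after each start, and Il2rb, Klrd1 and Ccl5 were not matched in it. Capitals mark matches, on either strand, to the T-box core GGTGTGA, to the spacing TTCNNNGAA shared by STAT and BCL6 sites, and to the Runx core TGTGGT, and no matches overlapped each other. The regions are chr11:97115282-97115581 (minus strand), chr6:128788592-128788891 (minus), chr7:43436888-43437187 (plus) and chr14:56262285-56262584 (minus) in the order below.
Tbx21: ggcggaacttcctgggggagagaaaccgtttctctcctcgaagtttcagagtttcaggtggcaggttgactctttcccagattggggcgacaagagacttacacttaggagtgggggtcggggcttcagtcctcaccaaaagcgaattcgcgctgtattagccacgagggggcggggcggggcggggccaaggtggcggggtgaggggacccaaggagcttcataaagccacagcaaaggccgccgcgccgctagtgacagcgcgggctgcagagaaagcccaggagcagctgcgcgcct
Klrb1c: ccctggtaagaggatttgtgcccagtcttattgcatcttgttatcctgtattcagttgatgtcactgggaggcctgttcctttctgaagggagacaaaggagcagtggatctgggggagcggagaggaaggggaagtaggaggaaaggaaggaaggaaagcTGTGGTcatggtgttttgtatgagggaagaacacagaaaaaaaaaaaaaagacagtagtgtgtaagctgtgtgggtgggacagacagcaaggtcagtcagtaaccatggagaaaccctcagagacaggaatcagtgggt
Nkg7: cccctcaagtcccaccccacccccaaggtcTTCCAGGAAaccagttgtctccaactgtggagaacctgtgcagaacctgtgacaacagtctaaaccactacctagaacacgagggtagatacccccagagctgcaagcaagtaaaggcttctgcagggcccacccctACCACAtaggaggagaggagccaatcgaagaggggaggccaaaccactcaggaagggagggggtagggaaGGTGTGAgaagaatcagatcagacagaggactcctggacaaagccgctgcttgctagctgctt
Gzmb: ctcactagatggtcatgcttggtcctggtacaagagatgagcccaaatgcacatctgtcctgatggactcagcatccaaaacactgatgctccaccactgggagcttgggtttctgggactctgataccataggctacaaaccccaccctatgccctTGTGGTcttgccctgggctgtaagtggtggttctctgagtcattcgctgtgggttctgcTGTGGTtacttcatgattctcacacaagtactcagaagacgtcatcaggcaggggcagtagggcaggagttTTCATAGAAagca

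The Nkg7 window held all 3 kinds of match, with the T-box core 13 bases before the RefSeq start. For Nkg7, Klrb1c and Gzmb the RefSeq starts differ from the gene starts in the coordinates given above. By those coordinates the Nkg7 T-box match and the whole Klrb1c window lie inside the gene. The whole Gzmb window lies outside its gene. The T-box core was found in 2 of the 7 matched members, Nkg7 and Xcl1, and in 3.98% of the 32851 promoters of the table. The spacing TTCNNNGAA was found in 3 of the 7 (Ifng, Nkg7 and Gzmb) and in 8.3% of promoters, and the Runx core in 5 of the 7 (Klrb1c, Nkg7, Xcl1, Gzma and Gzmb) and in 16.8%. The Tbx21 window held none of these letters. A match describes the letters in the window and was not tested as a site.

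Whether the genotype effect differed between the stages was tested as an interaction. No member passed the threshold, nor did any other tested gene (0%), while Nkg7 and Tbx21 had an unadjusted p under 0.05, against 7.78% of all tested genes, and DESeq2 passed 1 member, Klrb1c. The interaction was 7.19 for Nkg7 (SE 2.74, edgeR adjusted p = 0.574), 6.61 for Tbx21 (SE 2.91, adjusted p = 0.627) and 4.13 for Gzmb (SE 2.13, adjusted p = 0.678), each positive where the difference between Bcl6KO and WT was higher at stage 1. For Tbx21 this rested on WT ST0 replicate 2, without which no stage 0 library held a count. The same held for Klrb1c, whose edgeR value of 4.94 (SE 2.97, adjusted p = 0.746) turned to -3.35 without that library. DESeq2's value for Klrb1c was 18.8, with all Bcl6KO ST0 libraries at 0. A different genotype effect at the stages was therefore not shown for any member.

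Averaged over the stages, 4 members had an unadjusted p under 0.05 for genotype, against 10.9% of all tested genes, and none passed after adjustment, against 0.00637%. These were Klrb1c (-5.84, SE 1.70, edgeR adjusted p = 0.234), Nkg7 (-4.41, SE 1.40, adjusted p = 0.281), Tbx21 (-4.09, SE 1.50, adjusted p = 0.339) and Klrd1 (-3.79, SE 1.42, adjusted p = 0.336), each lower in the Bcl6KO. Without WT ST0 replicate 2 the value was -1.68 for Klrb1c, -0.39 for Tbx21 and -0.47 for Klrd1, which then came with stage 0 groups at or under the floor. Averaged over the genotypes, stage 1 against stage 0 came closest to the threshold: Nkg7 had a value of 5.20 (SE 1.43, adjusted p = 0.0744), Gzmb of 3.87 (SE 1.12, adjusted p = 0.0766) and Tbx21 of 4.80 (SE 1.54, adjusted p = 0.12). Of all tested genes, 3.46% passed (2.04% higher and 1.42% lower) and 18.3% had an unadjusted p under 0.05, which Klrb1c had as well (3.56, SE 1.58, adjusted p = 0.26).

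Across the 12 libraries, the levels of some members followed each other. Over log2 CPM with a prior count of 2, the pairs among Tbx21, Klrd1, Klrb1c and Nkg7 had Pearson correlations of 0.67 to 0.96, highest for Klrd1 with Klrb1c. Il2rb followed Klrd1 (0.23) and Klrb1c (0.26) little, and Gzma ran from -0.70 with Il2rb to -0.12 with Klrb1c. These values describe libraries that share groups, detection and many zeros, and they carry no test.

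Among 11776 other genes, the 5 with the highest correlation with the mean log2 level of the 7 tested members over the 12 libraries were Sergef (0.97), the interferon-induced genes Ifit3 (0.97) and Ifit3b (0.95), the gamma chain segment Trgv2 (0.96) and the scavenger receptor family gene Cd163l1 (0.95). Ifit3 was counted at 1.59, 14.96 and 0.394 CPM in WT ST0, at 17.1, 71.3 and 26.0 CPM in WT ST1, at 0 CPM in all Bcl6KO ST0 libraries and at 41.3, 7.35 and 11.2 CPM in Bcl6KO ST1. Like Tbx21, Klrb1c, Nkg7 and Xcl1, it had no count in Bcl6KO ST0 and was highest within WT ST0 in replicate 2. This likeness is no separate result, since the gene was chosen by its correlation with the members over these libraries. Ifit3 and Ifit3b are similar neighbouring genes whose reads may be split between them.

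Other genes of the type 1 program were counted from lists of related genes. Among 11 transcription regulators of type 1 cells, 7 were tested. With stage averaged over the genotypes, 3 rose, among them Zfp683 and Id2, and 1, Zeb2, fell. Of all tested genes, 2.04% rose and 1.42% fell in this comparison. Zfp683, which encodes the residency factor Hobit, rose by 6.92 (SE 1.30, edgeR adjusted p = 0.0172). It went from 0.398, 11.0 and 0 CPM in WT ST0 to 45.4, 27.2 and 43.1 CPM in WT ST1. In the Bcl6KO it went from 0 in all ST0 libraries to 19.5, 60.4 and 28.2 CPM at ST1. The fitted size therefore depends on the prior count. Zeb2, whose product acts with T-bet in terminal effector T cells, fell by 5.62 (SE 0.99, adjusted p = 0.00892), with 2.40 to 44.4 CPM in the stage 0 libraries and 0 to 0.820 CPM in the stage 1 libraries. Id2, which encodes an inhibitor of E proteins, also rose (2.33, SE 0.55, adjusted p = 0.0351), but its call was lost in 9 of 12 fits that left out 1 library and kept without WT ST0 replicate 1 or 2 or Bcl6KO ST0 replicate 1. No regulator passed the threshold between the genotypes or within 1 genotype.

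The receptors and signal carriers upstream of the members gave few calls. Of 9 genes of interleukin-12, interleukin-18 and interferon gamma signalling, all tested, Il18r1 rose with stage on average (3.48, SE 0.81, edgeR adjusted p = 0.0328), a call kept only without WT ST0 replicate 2 or 3 or Bcl6KO ST0 replicate 2 among the fits that left out 1 library. Of 10 genes of interleukin-2 and interleukin-15 receptor signalling, 8 were tested and none passed in any comparison. The most abundant of them, Il2rg, encodes the chain that pairs with the Il2rb product and had group means between 360 and 586 CPM. Of 8 chemokine and chemokine receptor genes, 5 were tested, and Cxcr6, a homing receptor of NKT1 cells in liver, rose with stage on average (4.68, SE 0.88, adjusted p = 0.0132) in the main test and in each fit without 1 library.

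Cxcr6 also rose within the Bcl6KO (6.65, SE 1.37, edgeR adjusted p = 0.0489), from 0, 0 and 3.94 CPM to 195, 71.0 and 136 CPM, and this call was kept only without WT ST0 replicate 2 or 3 or Bcl6KO ST0 replicate 3. Of 15 cytotoxic granule and killing genes, 13 were tested, and Fasl, the death receptor ligand, rose with stage on average (5.10, SE 1.16, adjusted p = 0.037). It was counted at 9.96, 5.33 and 3.28 CPM in WT ST1 and at 0 to 0.799 CPM in the other 9 libraries, and its call was lost on leaving out any library but WT ST0 replicate 2. Prf1, which encodes the pore-forming perforin, was at 0 in all Bcl6KO ST1 libraries but passed the threshold in no comparison. Gzmc, Gzmk and Stx11 were also at 0 in that group, and Gzmc and Gzmk were at 0 in WT ST1 as well.

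Of 17 NK receptor and adapter genes, 11 were tested and none passed the threshold in any comparison. Between the genotypes at stage 1, 6 of the 11 were lower in every Bcl6KO library than in every WT library and 1 was higher. Of all tested genes, 7.44% were lower and 5.87% higher in this way, as given above. Genes low in both Bcl6KO groups, such as Klrc2, passed the filter through WT libraries where they were higher. The filter thus favours a lower Bcl6KO level, and the count is no measure of a shift of this list. Cd160, the most abundant of the list, was counted at 25.1, 94.0 and 45.1 CPM in WT ST1 and 10.1, 8.75 and 13.4 CPM in Bcl6KO ST1 (log2 fold change -2.35, SE 0.92, edgeR adjusted p = 1). The chromosome 6 genes beside Klrd1 and Klrb1c were chosen for display after their values were seen. Klrk1, which encodes NKG2D, was counted at 9.56, 148 and 25.8 CPM in WT ST1 and 3.18, 0.199 and 0 CPM in Bcl6KO ST1 (-5.73, SE 2.05, adjusted p = 1).

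Klrc2, whose product pairs with CD94, was counted at 6.97, 16.4 and 12.9 CPM in WT ST1 and at 1.59, 0.199 and 0 CPM in Bcl6KO ST1 (-4.29, SE 2.03, edgeR adjusted p = 1). As for Klrd1, the highest value of Klrk1 and Klrc2 in each WT group was in replicate 2. The summed level of the 17 genes was 111 to 429 CPM in WT ST1 and 32.8 to 120 CPM in Bcl6KO ST1, so the groups overlapped.

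**Figure D5:**
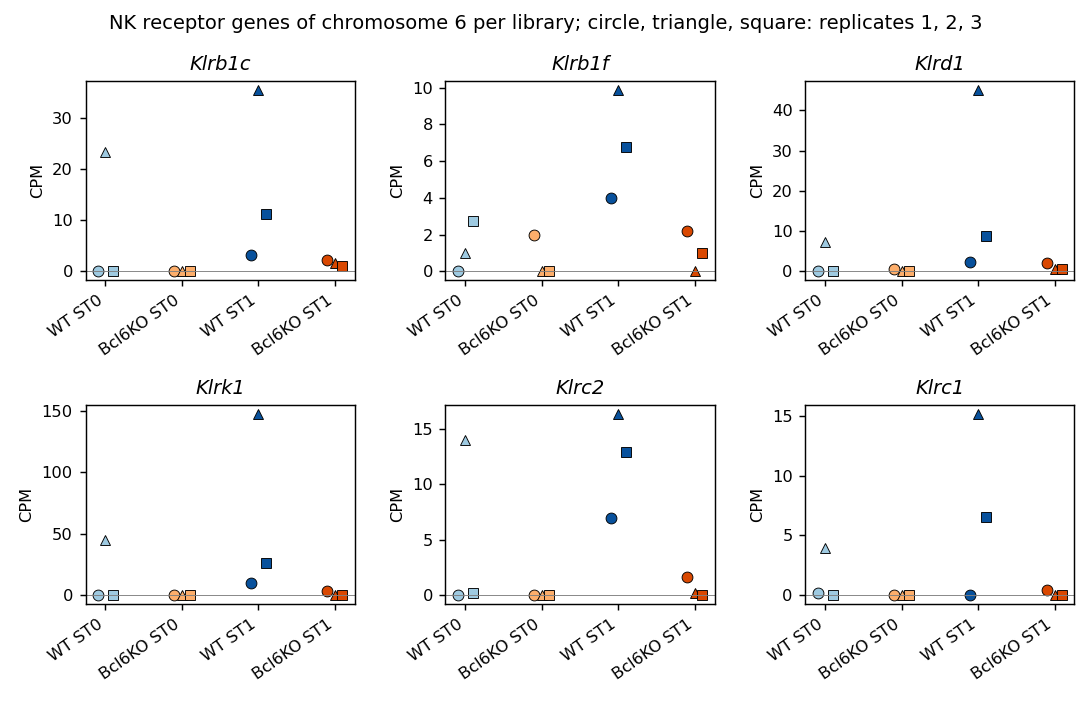
Levels in CPM of 6 NK receptor genes of chromosome 6 in the 4 groups, with 1 symbol per library. Except for Klrc1, whose WT ST1 replicate 1 is at 0, each gene is lower in every Bcl6KO ST1 library than in every WT ST1 library, and WT ST1 replicate 2 is the highest library in each panel.

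Genes of the other iNKT subsets were counted in the same way. Of 8 NKT2 genes, all tested, 1 rose with stage in WT, 4 rose in the Bcl6KO and 6 rose on average over the genotypes, where 0.07%, 0.42% and 2.04% of all tested genes rose. Icos rose with stage in WT (2.67, SE 0.34, edgeR adjusted p = 0.0031) and on average (2.27, SE 0.24, adjusted p = 0.000258), and Il17rb, the interleukin-25 receptor gene, on average (2.90, SE 0.40, adjusted p = 0.00209), each also in every fit without 1 library. Within the Bcl6KO, Icos (1.86, SE 0.33, adjusted p = 0.0278) and Il17rb (3.58, SE 0.59, adjusted p = 0.0218) rose as well, but these calls were lost without Bcl6KO ST0 replicate 3 or Bcl6KO ST1 replicate 1 or 3, and for Icos also without Bcl6KO ST1 replicate 2 or WT ST1 replicate 2 or 3. The other 2 calls in the Bcl6KO, the cytokine genes Il4 (4.88, SE 0.99, adjusted p = 0.0489) and Il13 (7.17, SE 1.49, adjusted p = 0.0489), were each kept in 3 of 12 fits that left out 1 library: without WT ST0 replicate 3 or Bcl6KO ST0 replicate 1 for both, and without WT ST0 replicate 1 for Il4 or replicate 2 for Il13. On average, the call of Il4 was lost without WT ST1 replicate 1 or 3 or Bcl6KO ST1 replicate 3, and that of Plac8 without WT ST1 replicate 1. Of 9 NKT17 genes, 4 were tested and none passed. The log2 Sp100 share, used as a covariate, was highest in Bcl6KO ST0 and so not fully separable from that group. With it, the calls of Zeb2, of Icos in WT and on average, and of Il17rb on average were kept. Calls of the other genes named from these lists were lost. For Zfp683 on average the value was then 6.67 (SE 1.28, adjusted p = 0.0555) and for Cxcr6 on average 3.99 (SE 0.87, adjusted p = 0.0664).

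Markers of cells that also express members were read beside these results. Ncr1, the defining NK and ILC1 receptor gene, was at 0 in all 12 libraries. The 8 markers of that list summed to 2.95 to 9.05 CPM in WT ST0, 7.97 to 33.8 CPM in WT ST1, 0 to 9.18 CPM in Bcl6KO ST0 and 12.9 to 68.9 CPM in Bcl6KO ST1, where replicate 3 was highest through Tyrobp (40.9 CPM) and Fcer1g (26.6 CPM). The 7 myeloid cell markers summed to 12.3 to 41.7 CPM in WT ST0 and 10.9 to 63.8 CPM in WT ST1. In the Bcl6KO they summed to 15.6 to 81.5 CPM at ST0 and to 26.8, 77.9 and 98.4 CPM at ST1. Bcl6KO ST1 replicate 3 was thus the highest library of the series in the myeloid sum. That library also held the highest Ifng and Gzmb levels of the series, and the part of other cells in them was not tested.

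The 6 gamma-delta T cell markers, among them constant segments of the gamma chain, summed to 138, 1027 and 20.5 CPM in WT ST0, 1372, 3637 and 2060 CPM in WT ST1, 81.5, 9.67 and 184 CPM in Bcl6KO ST0 and 1044, 748 and 990 CPM in Bcl6KO ST1. WT ST0 replicate 2 and WT ST1 replicate 2, which held the highest Klrd1, Klrb1c and Nkg7 levels of their groups, were also the highest of their groups in this sum. Trdv4 was at 0 in all libraries. The part of gamma-delta T cells in the members' levels was not tested.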

How the data were processed

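RNA of sorted thymic iNKT cells was extracted with a QIAGEN kit and libraries were made with the NuGEN Ovation Ultralow system, per the labels' protocols. Each deposited file holds unnormalized read counts by gene ID for 1 library. The submitters' processing notes name mm10 and the tools bcl2fastq, TopHat2, Bowtie2 and DESeq, without versions. How reads were counted, with which annotation and strand setting, is not given in the sources used here, and reads of overlapping or antisense genes may be mixed. Of the IDs, 360 had no symbol in GENCODE M21 and stayed in the tests.

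Groups and replicate numbers came from the titles. Nothing in the labels says that replicates were separate pools of mice, and the p-values then reflect only library-to-library spread, which may be technical. Counts were scaled by TMM, filtered with filterByExpr by group and fitted with edgeR 4.0.16 (R 4.3.3, robust quasi-likelihood, 1 mean per group, 12 libraries, 8 residual degrees of freedom). The SE was taken from the log2 fold change and the F statistic (change / √F). No pair of libraries agreed within sampling noise (chi-square per gene 27.6 to 170). The floor covers counting error only, since the libraries carry no molecular identifiers. The members, the lists and the rule for named genes were chosen with earlier results of these data known. The rule took the 10 members, from each list up to 2 genes past the threshold per direction, or the most abundant where none passed, Bcl6, Cd44 and Cd24a, and the 5 genes most like the members; 2 genes it named are not reported here. The procedure was tested on simulated data. Alternatives were other normalizations, filters and covariates, DESeq2 1.42.0, a replicate block, and each library left out. Chromatin accessibility was not analysed here.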

Additional observations from a re-analysis of the deposited data

How the results depend on the processing

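No member passed the threshold in any comparison under edgeR with DESeq2 size factors, library totals, a minimum of 1 CPM in 3 libraries, Sp100 removed, the Sp100 covariate, no robust dispersion or the replicate block. Fits of only the groups compared were made for the 4 comparisons between pairs of groups and passed none of the 2, 6, 5 and 3 members they tested. DESeq2's own test, which gave no p for Tbx21, passed 2 members for genotype at stage 0 (Klrb1c and Nkg7 lower), 3 for stage in the Bcl6KO and 3 for stage on average (Klrb1c, Nkg7 and Gzmb higher), 1 for the interaction (Klrb1c) and 2 for genotype on average (Klrb1c and Nkg7 lower). DESeq2's folds for Klrb1c were -22.1 for genotype at stage 0, 19.8 for stage in the Bcl6KO and 18.8 for the interaction. Those of edgeR were -8.31, 6.03 and 4.94, and each involved Bcl6KO ST0, where Klrb1c was at 0. Without a filter beyond 1 count, edgeR passed 1 member for stage in the Bcl6KO (Nkg7) and 3 for stage on average (Tbx21, Nkg7 and Ifng). Leaving out 1 library gave 0 to 2 members for stage on average, namely Tbx21 and Klrb1c without WT ST0 replicate 2 and Il2rb without Bcl6KO ST0 replicate 2, and 0 in the other comparisons.

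With the log2 Sp100 share as covariate, the fold turned to 1.02 for Klrd1 and 0.079 for Gzma (genotype, stage 0), 0.81 for Tbx21 (genotype, stage 1), -0.25 for Klrd1 (stage, Bcl6KO) and -0.054 for Gzmb (genotype on average). With library totals, which moved the median of all genes to -0.47 for genotype at stage 0, 0.50 for stage in the Bcl6KO, 0.46 for the interaction, -0.26 for genotype on average and 0.31 for stage on average, Il2rb turned to 0.13 for the interaction and Gzma to -0.084 for genotype on average. The other values that turned did so on leaving out 1 library, and their ranges over these fits follow; those of Tbx21, Klrb1c and Klrd1 include fits against groups at 0 or under the floor, which depend on the prior count. For genotype at stage 0, they were -0.50 to 1.22 for Il2rb, -6.63 to 3.16 for Klrd1 and -4.68 to 0.89 for Gzma. At stage 1, the ranges were -1.60 to 0.29 for Nkg7 and -4.49 to 2.504 for Gzma. For stage in WT, the ranges were -0.10 to 9.38 for Klrb1c and -0.77 to 2.34 for Gzmb. In the Bcl6KO, the ranges were -7.34 to 2.04 for Gzma. For the interaction, the ranges were -0.77 to 7.21 for Tbx21, -0.85 to 0.87 for Il2rb, -7.26 to 2.52 for Klrd1, -3.35 to 6.13 for Klrb1c and -3.50 to 5.88 for Gzma. For genotype on average, the ranges were -0.059 to 0.80 for Il2rb, -2.74 to 1.05 for Gzma and -1.09 to 1.52 for Gzmb. The cause was not tested.

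The replicate numbers gave no sign of pairing the libraries, although 3 libraries per group cannot exclude it. Over 18 same-number pairs the deviations correlated at -0.075 to 0.12, and 5 of 12 libraries were matched best by their own number. With the replicate block, no member passed, Gzma turned to -0.35 for genotype on average, and 396 of all genes passed for stage on average against 544. Among all genes, the calls over all alternatives ran from 0 to 950 for genotype at stage 0 (3 as reported), 0 to 20 at stage 1 (0), 20 to 376 for stage in WT (68), 3 to 1309 in the Bcl6KO (106), 0 to 130 for the interaction (0), 0 to 450 for genotype on average (1) and 123 to 1495 for stage on average (544), with the highest each time from DESeq2. At this depth a member at 0 could lie anywhere under the floor, and differences among Ifng, Xcl1 and Ccl5 were mostly not detectable.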
